A study of Drosophila melanogaster with 28 samples.

Results

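Autosomal regions bound by MSL2 are the places on chromosomes 2, 3 and 4 where an MSL2 antibody gave a peak on Drosophila chromatin assembled in a test tube. Peaks of 9 deposited peak lists were joined wherever they overlapped by at least 1 bp, which gave 1098 regions. Of these, 574 lay on autosomes outside the genes msl-2 and Clamp, and 282 of the 574 (49.1%) overlapped a peak of at least 1 of the 3 MSL2 antibody lists. The regions were thus chosen by the presence of an MSL2 peak. The other 292 were held by lists of the CLAMP or FLAG antibodies. A further 6 autosomal regions with an MSL2 peak lay inside msl-2 or Clamp, the genes of the added proteins, and were left out.

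The chromatin was reconstituted for 5 h on genomic DNA purified from BG-3 cells, a cell line from the larval central nervous system, and proteins were then bound to it for 30 min. The MSL2 antibody was used on chromatin that had received MSL2, both MSL2 and CLAMP, or both MSL2 and a CLAMP mutant. The CLAMP antibody was used after adding CLAMP or the mutant, each alone and together with MSL2, and the FLAG antibody after adding CLAMP or the mutant without MSL2. Each MSL2 group had 3 libraries and each CLAMP or FLAG group 2, and the peaks of a group were called on its merged libraries against the negative control of the same antibody, for which the labels name no added factor. All groups share the purified BG-3 DNA, and the labels do not say which assembly system was used or what the mutation changes.

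The dosage compensation complex raises transcription of the single X chromosome of male flies and largely leaves the autosomes alone. MSL2 is its male-specific subunit and reads GA-rich recognition elements through a CXC domain. The zinc finger protein CLAMP binds GA repeats on all chromosomes and helps the complex to reach the X. The series is titled for the cooperation and competition of transcription factors, and the mixtures of both proteins address it. Sequence was not used here, so the GA content of the regions is not described.

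The presence of a region in the MSL2 lists is what chose it, so the counts in this paragraph are a description. MSL2 alone gave 56 of the 282 regions (19.9%, exact 95% interval 15.4 to 25). MSL2 with CLAMP gave 249 (88.3%, 84 to 91.8), and MSL2 with the mutant gave 130 (46.1%, 40.2 to 52.1). Over all 574 autosomal regions the same lists held 9.76%, 43.4% and 22.6%. The list with the most autosomal regions, MSL2 with CLAMP, was called on 14660145 tags and that of MSL2 alone on 26822838. Intervals cover the counting of regions and nothing else. Libraries of a group were merged before calling, so no value has a replicate error and no test between conditions was possible.

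**Figure D1:**
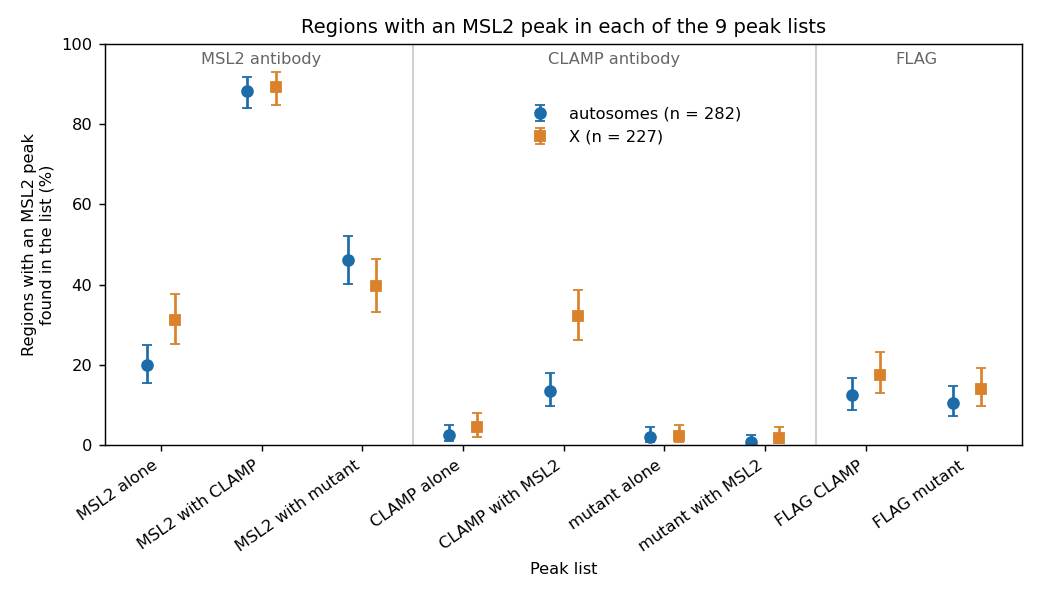
Percentage of the regions with an MSL2 peak that each peak list held, for 282 autosomal regions (circles) and 227 X regions (squares). Bars are exact 95% intervals that cover the counting of regions. The MSL2 lists chose the regions. In the list of the CLAMP antibody with CLAMP and MSL2 the autosomal value was 13.5% and the X value 32.2%.

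The CLAMP and FLAG lists held few of these regions, but some of these lists were short, which limits the shares they can reach. In the order given below, they held 26, 203, 19, 32, 175 and 107 autosomal regions. Of those, 26.9%, 18.7%, 31.6%, 6.25%, 20% and 28% were among the 282. The CLAMP antibody found CLAMP alone at 7 of 282 (2.48%, 1 to 5.05) and CLAMP in the presence of MSL2 at 38 (13.5%, 9.72 to 18). It found the mutant alone at 6 (2.13%) and the mutant with MSL2 at 2 (0.709%). The FLAG antibody found CLAMP at 35 (12.4%, 8.8 to 16.8) and the mutant at 30 (10.6%, 7.29 to 14.8), and the FLAG lists, which share a negative control, had 29 regions in common. Over the 521 regions of the series with an MSL2 peak on autosomes, X and Y, without those in msl-2 and Clamp, the corresponding shares were 3.65%, 21.5%, 2.11%, 1.15%, 16.3% and 13.6%.

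In all, 51 autosomal regions (18.1%, 13.8 to 23.1) overlapped a peak of at least 1 of the 6 CLAMP or FLAG lists, against 27.1% of the 521 regions, among them 12 on the Y of which 11 had such a peak. The other 231 had peaks of the MSL2 antibody alone. On the X, 79 of 227 regions with an MSL2 peak held a CLAMP or FLAG peak (34.8%, 28.6 to 41.4). The 2 intervals do not overlap, but the difference was not tested over libraries. The widest gap was in the list of CLAMP with MSL2, which held 38 of 282 regions on the autosomes and 73 of 227 on the X (32.2%, 26.1 to 38.7). In the FLAG list of CLAMP the shares were 12.4% and 17.6% (12.9 to 23.2), with intervals that overlap.

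**Figure D2:**
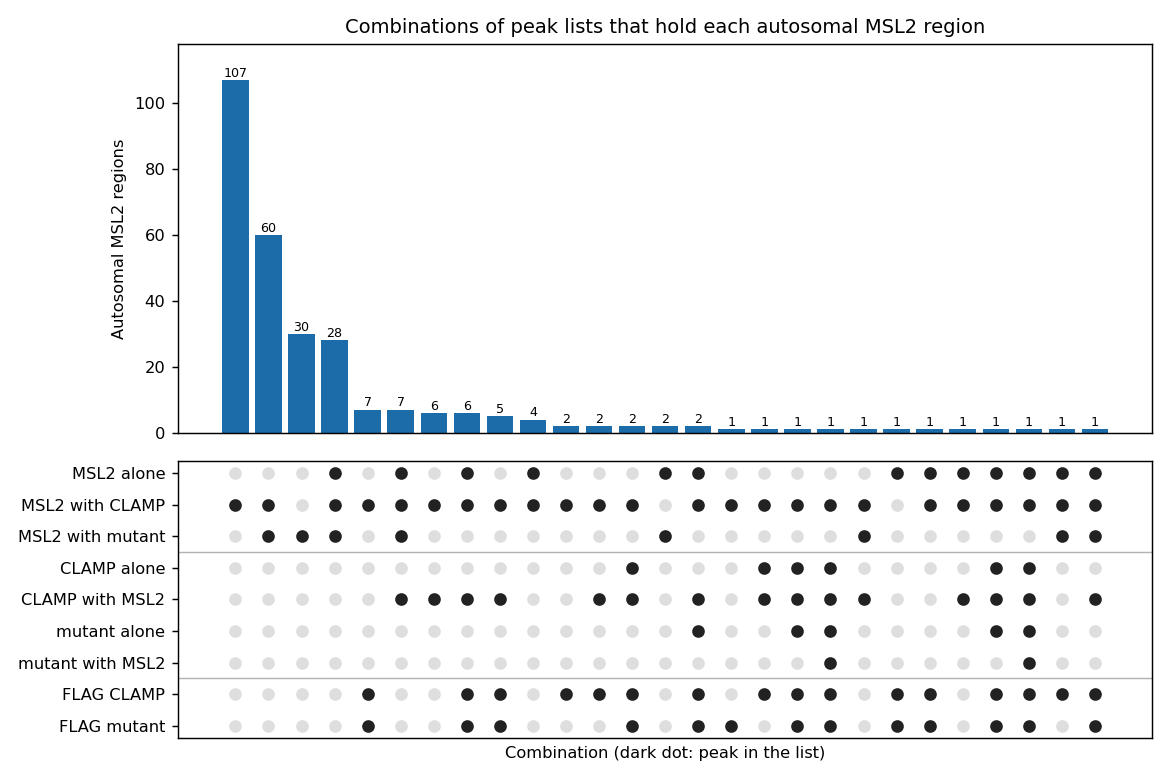
Number of autosomal MSL2 regions (bars) for each of the 27 combinations of peak lists that occurred, marked by dark dots. The 4 most frequent combinations hold MSL2 lists and no CLAMP or FLAG list, with 107, 60, 30 and 28 regions.

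The 282 regions fell into 27 combinations of lists. The list of MSL2 with CLAMP was the sole list at 107 regions, both mixtures at 60, the list of MSL2 with the mutant at 30, and all 3 MSL2 lists at 28. Counted over all 9 lists, 137 regions were in 1 list, 75 in 2, 40 in 3 and 30 in 4 or more. On the X, 93 of 227 were in 1 list and 47 in 4 or more. The plot of combinations shows that the autosomal set is led by regions in MSL2 lists alone, followed by many combinations with few regions each.

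Sorted by the MSL2 lists that held them, the regions differed in how often CLAMP was found. The 16 regions found with MSL2 alone and with CLAMP, but not with the mutant, were mostly CLAMP sites. Of these, 12 had a CLAMP or FLAG peak (75%, 47.6 to 92.7) and 11 a FLAG CLAMP peak. The 37 regions found in all 3 MSL2 lists had such a peak in 9 cases (24.3%, 11.8 to 41.2), and 2 of the 37 had a FLAG CLAMP peak. The 135 regions that appeared with CLAMP and in neither other MSL2 list had one in 28 cases (20.7%, 14.2 to 28.6). Of the 61 regions found in both mixtures but not with MSL2 alone, 1 had one (1.64%, 0.0415 to 8.8). None of the 30 regions found with the mutant alone among the MSL2 lists had one, where 3 counts, the limit that a count of 0 allows, would be 10%. The remaining 3 regions were found with MSL2 alone, 2 of them also with the mutant.

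**Figure D3:**
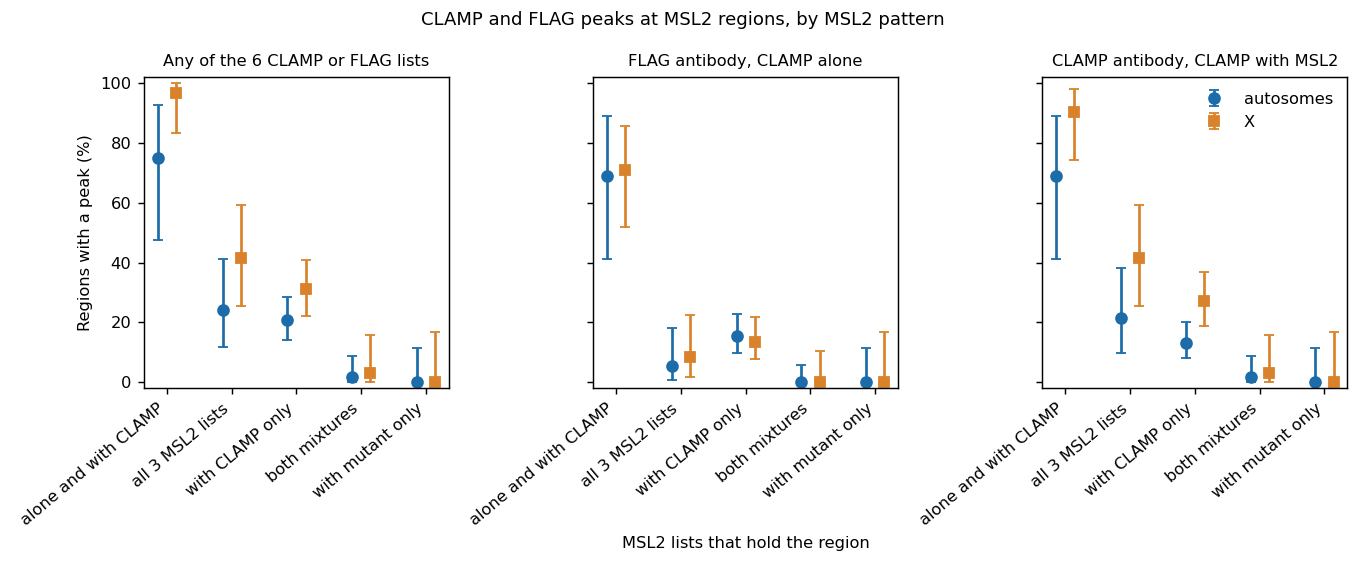
Percentage of regions with an MSL2 peak that also held a CLAMP or FLAG peak, by the MSL2 lists that held the region, for autosomes (circles) and X (squares), with exact 95% intervals of counting. The panels show any of the 6 lists, the FLAG list of CLAMP without MSL2, and the CLAMP antibody list of CLAMP with MSL2. On both, the class of MSL2 alone and with CLAMP is highest and the classes of both mixtures and of the mutant mixture lie at or near 0.

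The X showed the same order of classes. There, 30 of 31 regions found with MSL2 alone and with CLAMP had a CLAMP or FLAG peak (96.8%, 83.3 to 99.9), 15 of 36 in all 3 lists (41.7%, 25.5 to 59.2), 32 of 103 with CLAMP alone among the MSL2 lists (31.1%, 22.3 to 40.9), 1 of 33 in both mixtures and 0 of 20 in the mutant mixture. The autosomes therefore had lower values than the X in the first 3 classes, with overlapping intervals in each. The classes were also filled differently. Regions of all 3 lists made up 13.1% of the autosomal set and 15.9% of the X set, and regions of both mixtures 21.6% and 14.5%. Those with MSL2 alone and with CLAMP made up 5.67% (3.28 to 9.05) and 13.7% (9.47 to 18.8).

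The regions found with MSL2 alone and with CLAMP but not with the mutant hold 10 of the 15 autosomal regions in 5 or more lists and 11 of the 30 in 4 or more. The region in the most lists, 8 of 9, lay 165 bp from CG34386 (chr2R:18062020-18062250) and was missing from the list of MSL2 with the mutant. The next lay in a gene-poor stretch of 3L, 34349 bp from CG43245 (chr3L:10737375-10737576), in 7 lists, missing also where the mutant was precipitated with the CLAMP antibody in the presence of MSL2. A second region 1772 bp away (chr3L:10739349-10739538) was found with MSL2 and CLAMP by both antibodies and by FLAG CLAMP, but not with MSL2 alone, and is named after its lists were seen. Neither region overlaps a gene body of the table.

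Of the 16 regions of this class, 11 lay in a gene body. A region in bru2, which encodes an RNA-binding protein of the Bruno family (chr2L:12366072-12366352), and one in tei (chr2R:13629689-13629856) were each in 6 lists, including the CLAMP antibody list of the mutant alone. The region in ftz-f1, a nuclear receptor of the ecdysone cascade (chr3L:18787955-18788165), was in 5 lists. So were those in mtd (chr3R:5282869-5283204), tna (chr3L:10856646-10856819), CG32137 (chr3L:13949494-13949750) and CG42366 (chr2L:9929141-9929371), and 1 region 2996 bp from a phenylalanine tRNA gene (chr3R:13794788-13794957). In all 6 the lists were the same, namely MSL2 alone, MSL2 with CLAMP, CLAMP with MSL2 and both FLAG lists. The region in otp, a homeobox gene of neuroendocrine neurons (chr2R:20896332-20896588), was in 4 lists and lacked the CLAMP antibody. In the class, 4 regions had no CLAMP or FLAG peak, in Dab, TyrRII and CG6184 and 1098 bp from lncRNA:CR43856, and 1 near tup, 5824 bp away, had a peak of CLAMP with MSL2 but no FLAG peak (these 5 are named after their lists were seen).

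Of all 282 regions, 247 had no FLAG CLAMP peak, and regions found in all 3 MSL2 lists were likewise mostly without one. In that class 2 of 37 had it (5.41%, 0.661 to 18.2), an interval that covers the 12.4% of the whole set. An exception was trh, which encodes a bHLH-PAS factor of tracheal development. Its region (chr3L:378058-378273) was in 6 lists, with both FLAG lists and CLAMP with MSL2. A region in sif, a guanine nucleotide exchange factor of synapses, which also overlaps the nested gene CG46320 (chr3L:5729092-5729375), had a FLAG CLAMP peak and none of the CLAMP antibody.

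In 7 of the 37 regions CLAMP was seen with the CLAMP antibody in the presence of MSL2 and by no other CLAMP or FLAG list. They lay in psq, a BTB factor that itself binds GA-rich DNA (chr2R:10583194-10583420), in pros, a homeodomain factor of neural differentiation (chr3R:11372802-11372953), in comm3, of the commissureless family of axon guidance (chr3L:15626005-15626180), in lncRNA:iab8, a noncoding RNA gene of the bithorax complex (chr3R:16899813-16899983), and in CG33158 (chr3L:16493657-16493876), CG33003 (chr2L:4402523-4402684) and CG15022 (chr3L:4459963-4460124). Over the whole autosomal set this combination without FLAG CLAMP held for 15 regions (5.32%, 3.01 to 8.62), and 23 regions had both CLAMP with MSL2 and FLAG CLAMP (8.16%, 5.24 to 12). On the X the counts were 39 (17.2%, 12.5 to 22.7) and 34 (15%, 10.6 to 20.3). The FLAG list was called on 17840662 tags and that of CLAMP with MSL2 on 3875205, and the antibodies differ, so presence in the first and absence in the second are not equivalent.

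The other 28 regions of all 3 lists had no CLAMP or FLAG peak at all. They included Dh44-R2, a neuropeptide receptor gene (chr2R:12475809-12476060), brat, a translational repressor of neural stem cell progeny (chr2L:19158812-19159024), and Myo81F, an unconventional myosin gene in the pericentric part of 3R (chr3R:944307-944498). A second region in brat, 4011 bp away (chr2L:19154650-19154800), was found with CLAMP and in no other list.

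The regions that appeared with CLAMP and in neither other MSL2 list were the largest class, 135, and 107 of them were in no second list. Any further list of a region of this class is by definition a CLAMP or FLAG list. The regions in the most lists had peaks of CLAMP without MSL2 among them. Rbp6, an RNA-binding protein gene of the Musashi family, held a region in 7 lists (chr3L:17159653-17159818), namely all 6 CLAMP and FLAG lists and MSL2 with CLAMP. The region in CG34353 (chr3R:27770730-27770896) was in 6 and lacked the mutant with MSL2. Cow, a secreted modulator of Wnt signals (chr3R:23074589-23074822), and Pzl, a Piezo-like channel gene (chr3R:3033551-3033701), had regions in 5, and both were found with CLAMP alone by the CLAMP and the FLAG antibody.

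Regions in 4 lists lay in pum, the translational repressor Pumilio (chr3R:9105776-9105941), in bru3 (chr3L:13629592-13629744), in CG13954 (chr2R:9344015-9344167), in CG2839 (chr2L:626904-627138), 251 bp from croc, a forkhead factor (chr3L:21476730-21476890), and 3729 bp from lncRNA:CR45054 (chr3R:10079411-10079652). Except in CG2839, which had CLAMP alone and no FLAG mutant peak, these were in the lists of CLAMP with MSL2 and both FLAG lists. CLAMP without a peak of the CLAMP antibody but with FLAG CLAMP was seen at 9 regions of the class, among them fru, the sex-determination factor Fruitless (chr3R:18417528-18417679), and the third region of brp, a scaffold of the synaptic active zone (chr2R:9521427-9521577).

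The 61 regions of both mixtures formed a class nearly without CLAMP or FLAG peaks. Its 1 CLAMP peak lay in Osbp, an oxysterol-binding protein gene (chr3R:24937537-24937697), with the CLAMP antibody and CLAMP with MSL2. Neither FLAG list held any of the 61, where 3 counts would be 4.92%. By the rule for naming, other regions of the class lay in rn, a zinc finger factor (chr3R:7288529-7288782), vri, a bZIP factor of the circadian clock (chr2L:5288808-5289012), gogo, an axon guidance receptor of photoreceptors (chr3L:20287296-20287493), Spn, the scaffold spinophilin (chr3L:2514921-2515132), gig, the Tsc2 growth inhibitor (chr3L:20135428-20135612), Nle (chr2L:568009-568187) and ninaE, the main rhodopsin (chr3R:19887605-19887813). The nearest CLAMP or FLAG region was at a median of 106410 bp from the 60 regions without one and at least 2294 bp away.

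The 30 regions of the mutant mixture were single-list sites. They included Eip93F, an ecdysone-induced factor (chr3R:21949479-21949629), Elk, a voltage-gated potassium channel gene (chr2R:17896713-17896863), hig, a protein of the synaptic cleft (chr2R:9231513-9231663), jeb, the ligand of the receptor kinase Alk (chr2R:12086314-12086464), and Ndae1, an anion exchanger gene (chr2L:7231246-7231396). The nearest CLAMP or FLAG region was at least 10046 bp away. A pair of regions was found with MSL2 alone and with the mutant but not with CLAMP, in Slob (chr2L:7654030-7654239) and 1385 bp from CG12589 (chr3R:5140374-5140533). The region found with MSL2 alone among the MSL2 lists, in CG15803 (chr3R:18358726-18358877), was in both FLAG lists.

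Sites of the mutant, as the FLAG antibody saw it without MSL2, can be followed through the MSL2 lists. Of the 107 autosomal regions with a FLAG mutant peak, with or without MSL2, MSL2 alone held 13 (12.1%, 6.63 to 19.9), MSL2 with CLAMP 29 (27.1%, 19 to 36.6) and MSL2 with the mutant 1 (0.935%, 0.0237 to 5.1). That 1 region is the one in trh. Of the other 467 autosomal regions, the same lists held 43 (9.21%, 6.74 to 12.2), 220 (47.1%, 42.5 to 51.7) and 129 (27.6%, 23.6 to 31.9). For MSL2 alone the intervals overlap. Of these 467 regions, 231 are known from MSL2 lists alone, which by itself raises the shares of those lists there. The 3 MSL2 lists share 1 negative control, so the values are set side by side with no test. On the X, MSL2 alone held 24 of 108 FLAG mutant sites (22.2%, 14.8 to 31.2), MSL2 with CLAMP 31 (28.7%, 20.4 to 38.2) and MSL2 with the mutant 3 (2.78%, 0.577 to 7.9).

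Where no CLAMP or FLAG list had a peak, autosomes and X were close. Such regions are known from the MSL2 lists alone, so their shares in those lists are a description. MSL2 alone held 34 of 231 such regions on the autosomes (14.7%, 10.4 to 20) and 25 of 148 on the X (16.9%, 11.2 to 23.9). MSL2 with the mutant held 120 (51.9%, 45.3 to 58.5) and 74 (50%, 41.7 to 58.3). Regions with a CLAMP or FLAG peak do not need an MSL2 peak to be counted, so their shares cannot be compared with those just given. Of all such autosomal regions, MSL2 alone held 22 of 343 (6.41%, 4.06 to 9.55), against 46 of 354 on the X (13%, 9.67 to 16.9).

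Peaks share a region because they overlap, so the rule itself puts their centres close together. The offsets below are a description. All but 3 deposited peaks are 151 bp wide, and each is centred on the highest pile-up of tags, per the file headers. The centres of MSL2 alone and MSL2 with CLAMP were a median of 13 bp apart over 53 autosomal regions, with 33 within 20 bp, and at most 185 bp apart. MSL2 with CLAMP and MSL2 with the mutant were 4.5 bp apart over 98 regions, and 73 of them lay within 20 bp. MSL2 with CLAMP and FLAG CLAMP were also 4.5 bp apart, over 34 regions. MSL2 alone and FLAG CLAMP were 31.5 bp apart over 14 regions. On the X the median offsets of the same 4 pairs were 14, 13, 22 and 23.5 bp. FLAG CLAMP and FLAG mutant peaks were centred within 20 bp of each other at 27 of 29 autosomal regions (93.1%, 77.2 to 99.2) and at 20 of 32 X regions (62.5%, 43.7 to 78.9). Peaks farther apart than their width were joined through a peak lying between them.

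The regions were spread evenly over the large autosome arms, with none on chromosome 4. Arm 2L held 55, 2R 68, 3L 75 and 3R 84, which is 2.34, 2.69, 2.68 and 2.62 regions per Mb. Chromosome 4, with 1.15% of the autosome length, held 0 of 282, where 3 counts would be 1.06%. The X held 9.64 regions with an MSL2 peak per Mb against 2.56 on the autosomes, a ratio of 3.77. By list the ratio was 5.93 for MSL2 alone, 3.81 for the CLAMP mixture and 3.24 for the mutant mixture.

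This ratio depended on the place of the peaks in the deposited lists, whose order has no stated meaning. In the first 50% of each list the autosomes held 198 regions and the X 45, or 1.8 and 1.91 per Mb, a ratio of 1.06. Of the autosomal peaks of MSL2 with CLAMP, 179 of 249 were in the first 50% of the list (71.9%, 65.9 to 77.4), and of those on the X 42 of 203 (20.7%, 15.3 to 26.9). Within the first 50% of the lists, 20.2% of the autosomal regions had a CLAMP or FLAG peak, against 18.1% in the full lists.

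Along the arms the regions were thinner towards the centromere, as were the autosomal regions without an MSL2 peak. The 10% of the arm length next to the centromere held 11 regions (3.9%, 1.96 to 6.87), against 14 of 292 without an MSL2 peak (4.79%, 2.65 to 7.91), and the 10% at the far end 43 (15.2%, 11.3 to 20). Among the 61 regions of both mixtures, 17 lay in the last 10% (27.9%, 17.1 to 40.8), spread over 2L with 4, 2R with 5, 3L with 3 and 3R with 5. This class is named because its share there was the highest, with 0 to 14.8% in the other classes. Its interval overlaps that of the whole set. The autosomal regions without an MSL2 peak had 31 of 292 there (10.6%, 7.33 to 14.7).

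**Figure D4:**
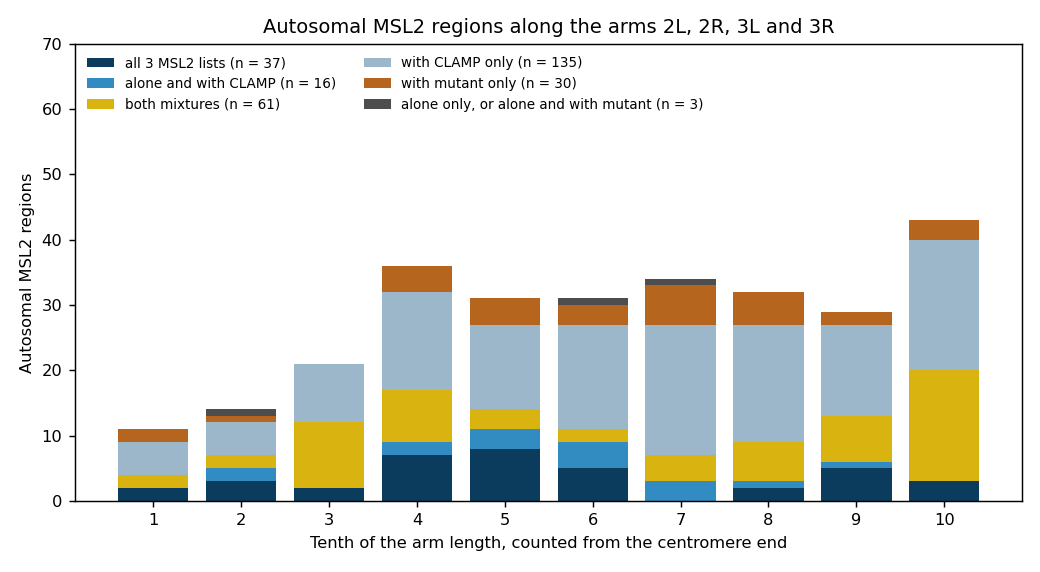
Autosomal MSL2 regions in 10 equal bins of the arm length from the centromere end, summed over 2L, 2R, 3L and 3R and stacked by the MSL2 lists that held them. The first bin holds 11 regions and the last 43, of which 17 belong to the class of both mixtures.

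Most regions lay in genes, as do most positions of the autosome arms. Gene bodies cover 75.4 Mb of the 110121518 bp of these arms. Of the 282, 234 overlapped a gene body (83%, 78.1 to 87.2) and 230 a protein-coding one. On the X 89% did (84.2 to 92.7), and of the 292 autosomal regions without an MSL2 peak 67.8% (62.1 to 73.1). Regions within 500 bp of a gene end made up 21.6% (17 to 26.9), against 14.7% (10.9 to 19.3) without an MSL2 peak. Strand and exons are not in the gene table, so promoters, untranslated regions and introns were not told apart. The 51 regions with a CLAMP or FLAG peak lay in longer genes (median length 56352 bp) and farther from gene ends (median 5034 bp) than the 231 with MSL2 peaks alone (17733 and 1360 bp). The 292 regions without an MSL2 peak, all from CLAMP or FLAG lists, had similar medians (48904 and 3993 bp), so this is not particular to regions with MSL2.

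The 282 regions were mostly single sites. Between neighbours on an arm the median gap was 231442 bp, and 10 of 278 gaps were 10 kb or shorter (3.6%, 1.74 to 6.52), of which 9 joined regions assigned to the same gene name. One of these pairs, named for CG43245, lies far from that gene, as given above. On the X 34 of 226 gaps were that short (15%, 10.6 to 20.4), on a chromosome with more regions per Mb. By name, 5 genes had 3 regions, brp, mbl, hth, Pzl and Myo81F, 1 of the 3 for Myo81F being 399604 bp from it, and 12 had 2.

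In brp the 3 regions lay within 5 kb and differed in their lists. The first (chr2R:9517060-9517210) was in both mixtures, the second (chr2R:9519012-9519162) in the list with CLAMP and the third in that list and FLAG CLAMP. In mbl, the splicing factor Muscleblind, 1 region was found with MSL2 and CLAMP by both antibodies (chr2R:17304073-17304266). The other 2, 1176 bp apart, were found with the mutant (chr2R:17344465-17344615) and in both mixtures (chr2R:17345792-17345951). In hth, a homeobox partner of the Hox factors, 2 regions were found with CLAMP (chr3R:10516953-10517171, which also had a peak of CLAMP with MSL2, and chr3R:10525201-10525351) and 1 in both mixtures (chr3R:10548232-10548384).

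Of 14979 autosomal genes in the table, 233 had a region in their body (1.56%), and 386 had one in it or within 2 kb (2.58%). Gene length went with this share, since 8.49% of genes of 10 kb or longer had a region (139 of 1638) and 0.705% of shorter ones (94 of 13341). Per Mb of gene body the values were 2.93 and 3.51. Most lists below hold genes longer than the typical autosomal gene, so both quantities are given. The lists were written with earlier results of these data known. Their values beside all autosomal genes are therefore a description and no test.

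**Figure D5:**
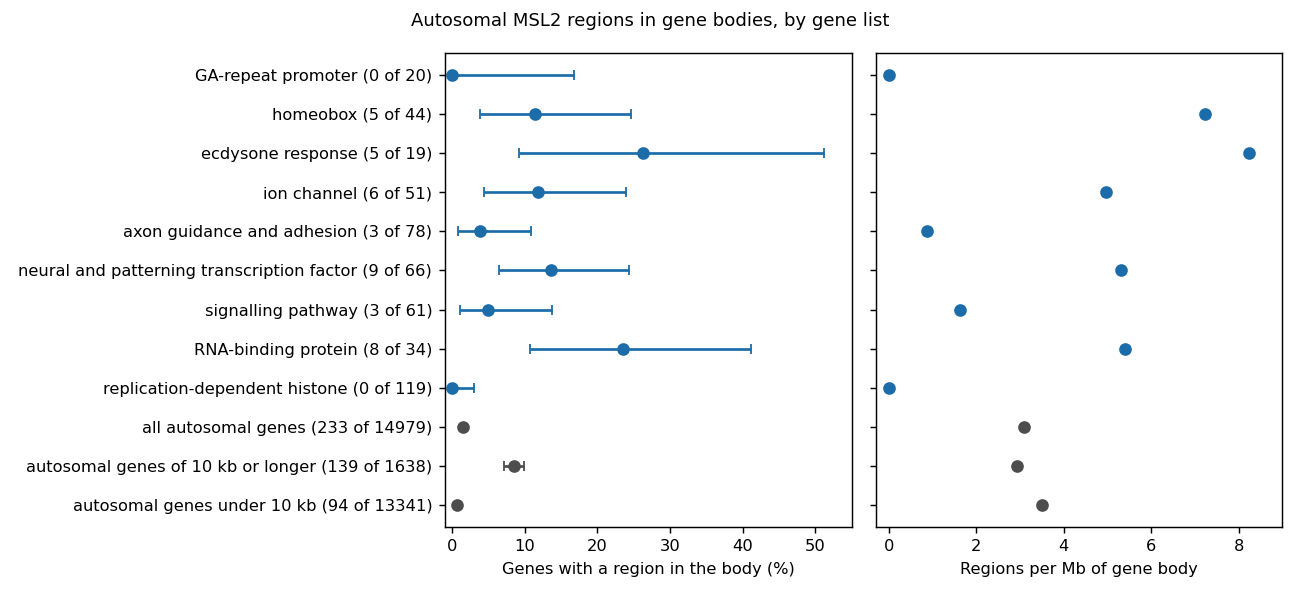
Share of the autosomal genes of each list with an MSL2 region in the body (left, exact 95% intervals of counting) and regions per Mb of gene body (right), beside all autosomal genes and those above and under 10 kb. Ecdysone response genes have 26.3% and 8.23 regions per Mb, and axon guidance and adhesion genes 3.85% and 0.884. The lists were written with earlier results of these data known.

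Of the autosomal genes for partners of MSL2 in dosage compensation (JIL-1, mle, msl-1 and msl-3), none held a region in the body or within 2 kb. None of the 20 listed genes with GA-repeat promoters, which include the heat shock genes, en and Ubx, held one either, nor did any of the 119 histone gene copies. Set against these counts of 0, 3 counts would be 75% of the 4 dosage compensation genes, 15% of the 20 GA-repeat genes and 2.52% of the histone copies. The first 2 lists are thus too small to set a low limit, and the 2.52% of the histone copies lies above the 1.56% of all autosomal genes. The bodies of the 3 lists cover 0.0278, 0.193 and 0.0736 Mb, at 3.1 regions per Mb over all autosomal genes. So none of these lists is set apart from all autosomal genes. The median gene length was 5502, 2361 and 529 bp in the 3 lists, against 1663 bp over all autosomal genes.

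Genes of the ecdysone response had regions in 5 of 19 cases (26.3%, 9.15 to 51.2) and 8.23 regions per Mb, against 3.1 per Mb over all autosomal genes. Besides ftz-f1 and Eip93F, these were Eip75B, a nuclear receptor with 2 regions found with CLAMP (chr3L:17993726-17993876 and chr3L:18036406-18036556), Hr3, a nuclear receptor found with CLAMP (chr2R:10237323-10237473), and ImpE1, found in both mixtures (chr3L:8388344-8388494). The homeobox genes had 5 of 44 with 7.24 regions per Mb. Besides hth and otp these were Dll, the limb selector (chr2R:24829493-24829643), pdm2, a POU factor of neuroblasts (chr2L:12685369-12685519), and cad, the posterior factor Caudal (chr2L:20781372-20781522), all 3 found with CLAMP.

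Neural and patterning transcription factors had regions in 9 of 66 cases (13.6%, 6.43 to 24.3; 5.3 per Mb). Of these, trh and pros were in all 3 MSL2 lists, ab and fkh in both mixtures, and grh, chinmo, fru, luna and klu in the list with CLAMP. The region in grh, the Grainyhead factor (chr2R:17814009-17814162), also had peaks of CLAMP with MSL2 and FLAG CLAMP. The region in luna (chr2R:11116288-11116507) had a FLAG peak of the mutant and none of CLAMP.

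Genes of RNA-binding proteins had regions in 8 of 34 cases (23.5%, 10.7 to 41.2; 5.39 per Mb), with 10 regions. Those in bru2, bru3, Rbp6 and pum were CLAMP or FLAG sites. A second one in pum (chr3R:9184574-9184728) had CLAMP with MSL2. Those in orb, msi, heph and brat had no CLAMP or FLAG peak, and msi, which encodes Musashi (chr3R:25532458-25532608), and heph, a polypyrimidine tract-binding protein (chr3R:31914326-31914496), were in both mixtures. The genes with a region were long, with a median of 130420 bp.

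Ion channel genes and their partners had regions in 6 of 51 cases (11.8%, 4.44 to 23.9; 4.96 per Mb). None of these had a CLAMP or FLAG peak, which was also missing at 231 of all 282 regions, so with 6 regions this sets the list apart little. With CLAMP these were Shal, a potassium channel (chr3L:19573396-19573546), tipE, a sodium channel subunit (chr3L:4191694-4191844), and RyR, the calcium release channel (chr2R:8880292-8880442). The region in tipE also overlaps the longer gene CG18675. Rdl, a GABA receptor, was in both mixtures (chr3L:9181577-9181739), and Elk and Slob are given above. In axon guidance and adhesion 3 of 78 genes had a region (3.85%, 0.8 to 10.8; 0.884 per Mb), Fas3, Nrx-1 and ed, and in the signalling pathways 3 of 61 (4.92%, 1.03 to 13.7; 1.64 per Mb), Cow, mam and Dop1R2. Among the lists with regions these 2 were the lists below the value for all autosomal genes per Mb, and their counts are small.

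The overlap rule left few doubtful cases. The smallest overlap that joined 2 peaks of a region was 38 bp, in mtd. Just outside the rule, 7 autosomal regions without an MSL2 peak lay within 500 bp of a region with one. Named after they were seen, the closest lay near salm, 22 bp from a region found with MSL2 and CLAMP, and was found with the CLAMP antibody in that mixture (chr2L:11446271-11446421). The next lay 55 bp from a region of all 3 MSL2 lists near SdhCL and was found with the CLAMP antibody and the mutant with MSL2 (chr3R:11110527-11110677).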

How the data were processed

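ChIP-seq peak lists of 9 groups with an added protein were used. Per the file headers, peaks were called by the authors (HOMER findPeaks, factor style) on each group's merged tags, against the negative control of the same antibody, with 10-fold over control, 4-fold over the local 10000 bp and a false discovery rate of 0.001. Bowtie2 2.2.9, SAMtools 1.9, HOMER 4.9 and the build dm6 are named in the submitters' processing notes. The deposited score is 1 in every line and carries no measurement. Absence from a list means that the filters were not passed, not that binding was measured as lost. Total tags ran from 3875205 to 26822838.

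Starts were made 1-based. Peaks overlapping by at least 1 bp were merged, and bedtools 2.31.1 gave the same 1098 regions. On simulated lists 282 of 282 planted regions were recovered with their lists. The planted regions lay far apart and their peaks always overlapped, so this checks the code and not close neighbours or chained peaks. Genes came from RefSeq (Release 6 plus ISO1 MT), by body or nearest end, under the longest protein-coding gene. Arm lengths run to the last gene or peak. Shares carry exact (Clopper-Pearson) 95% intervals. Members, gene lists and splits were chosen with earlier results of these data known. Regions were named by the 10 top regions of each MSL2 pattern (number of lists, width, position), genes with 3 or more regions, listed genes, and regions in 6 or more lists. Libraries were merged, so no replicate was left out, and sequence was not used here. Python 3.11.15, scipy 1.17.1 and matplotlib 3.10.9 were used.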

Additional observations from a re-analysis of the deposited data

Results flagged for a closer look

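Outside the comparisons above, 6 autosomal regions with an MSL2 peak lay inside msl-2 (5) and Clamp (1) and were left out, since these are the genes of the added proteins. Another 12 regions with an MSL2 peak lay on the Y. All 12 were in the list of MSL2 with CLAMP, 1 in that of MSL2 alone and 1 in that of MSL2 with the mutant. Of the 12, 10 had a FLAG CLAMP peak, 9 a FLAG mutant peak, 2 a peak of CLAMP alone and 1 a peak of CLAMP with MSL2, and 11 had at least 1 of these. Both sets are listed because they lie outside the 282 regions described, although the 12 on the Y are part of the 521.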

How the results depend on the processing

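No paired analysis was possible because each list was called on merged libraries, so no replicate numbers remain. Joining peaks within 500 bp, or asking for an overlap of at least 50 bp, kept all 23 results in each case within 1.5 times the count or within the interval of the share. With the first 50% of every list, in the deposited order, regions of all 3 MSL2 lists fell to 23, those with CLAMP alone among the MSL2 lists to 89 and those with the mutant alone among them to 15. The share with a CLAMP or FLAG peak in both mixtures was then 0%, and X regions with an MSL2 peak numbered 45. The other 18 results stayed close. With the regions in msl-2 and Clamp kept, the list of the mutant with MSL2 held 5 members in place of 2. With genes within 2 kb counted, 386 autosomal genes had a region and 91.1% of the regions had a gene. Restricted to the 116 regions in 2 or more MSL2 lists, genes with a region numbered 106 in all, 2 homeobox, 2 ecdysone response, 2 ion channel, 1 axon guidance and adhesion, 4 neural and patterning, 0 signalling and 4 RNA-binding, which follows from fewer regions. A stricter score could not be applied, and the GA-repeat search was not run for want of sequence.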
